A study of Mus musculus with 6 samples.

Results

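Cells of tibialis anterior muscle (TAM) from mice on the control diet were compared at 5 days after cardiotoxin injury (5 dpi) and without injury (0 dpi). Cells were taken from the 2 control files in question, and only from the first run of columns, up to the column at which the barcodes leave alphabetical order. This gave 1152 cells at 0 dpi and 2428 cells at 5 dpi, 3580 of the 11207 first-run cells of the whole series, which holds 20269 columns. Gene levels were compared in all cells, in cells with at least 1 unique molecular identifier (UMI) of *Pdgfra*, and in cells with at least 1 UMI of *Cdh5*.

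The mice were males of 3 to 5 months on a B6;129 background and carried the allele Gt(ROSA)26Sor<tm1(Fucci2aR)Jkn, a cell cycle reporter that needs Cre to be switched on. The study's methods state that the mice of these libraries lacked Cre, so the reporter marks no cell here. All of them ate a matched diet with iodine and without propylthiouracil. The hypothyroid libraries, used below for comparison, come from mice on an iodine-deficient diet with propylthiouracil. The study's methods state that this diet was given for 3 weeks before the injury and was continued after it. Injured mice received cardiotoxin (CTX, 50 μg/ml), a snake venom toxin that lyses muscle fibres, in the right TAM. Muscles of 3 mice were pooled in each library before droplet capture with the 10x 3′ V3 chemistry, and each time point has 1 library. The labels also give the day as the batch, so time after injury and batch cannot be told apart, and no test between the libraries was possible.

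Fibro-adipogenic progenitors (FAPs) are the resident mesenchymal cells of muscle and carry the PDGF receptor alpha on their surface. After an injury they leave their resting state, divide, and lay down a provisional matrix of collagens and matricellular proteins around regenerating fibres, while leukocytes clear debris. Endothelial cells, which hold together through VE-cadherin (*Cdh5*), rebuild the capillary bed by sprouting and recruit leukocytes through adhesion molecules and chemokines.

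Levels are given in CPM, the UMIs of a gene pooled over all cells of a population and divided by that population's total, per 1000000 UMIs. A ratio is the CPM at 5 dpi over the CPM at 0 dpi, with an exact 95% interval. Intervals cover counting error only, not differences between mice, libraries, or capture days. Those of levels and ratios take each UMI as a separate draw, so they also leave out differences between cells. A gene was counted as higher or lower when its ratio was at least 2-fold, among genes with a mean of at least 25 CPM over the 2 libraries. Where a gene had 0 UMIs in a library, 3 counts were put in its place and the fold is a lower bound.

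The libraries held 5931954 UMIs at 0 dpi and 15434926 UMIs at 5 dpi, with medians of 4589 and 3846 UMIs per cell. The first runs shared 3 barcodes and no cell with the same values. A later run of the control 0 dpi file, left out here, repeats 1152 cells of the hypothyroid 14 dpi file. In turn, 528 of the 2428 cells at 5 dpi recur in a later run of the hypothyroid 0 dpi file. The files do not show to which sample the repeated cells belong, and the first run was taken as the sample each file is named for. Without these 528 cells, each of the 177 reported gene ratios of at least 2-fold stayed at least 2-fold in its direction.

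The *Pdgfra* gate held 508 cells at 0 dpi and 316 cells at 5 dpi. The 8 FAP markers include *Pdgfra*, whose presence the gate fixed. None of the 8 was at 0 in either library, and their summed level was 50595 CPM at 0 dpi and 36646 CPM at 5 dpi. The highest was *Gsn* at 0 dpi (25578 CPM) and *Col1a1* at 5 dpi (15221 CPM). Endothelial markers summed to 19.2 and 44.2 CPM and leukocyte markers to 19.2 and 127 CPM, so the markers matched the name FAP on both days. Gated cells were deeper after injury, with medians of 5586.5 UMIs at 0 dpi and 14989.5 UMIs at 5 dpi. At 5 dpi, 53 of the 316 cells (16.8%) also held a UMI of *Ptprc*, the leukocyte antigen CD45, against 3 of 508 cells at 0 dpi.

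The *Cdh5* gate was small, with 80 cells at 0 dpi and 164 cells at 5 dpi, and medians of 1790.5 and 4896 UMIs per cell. Its 7 endothelial markers, which include the gate gene *Cdh5*, summed to 4059.5 CPM at 0 dpi and 5149.8 CPM at 5 dpi. The gate also held RNA of other cells. Muscle fibre markers summed to 12334 CPM at 0 dpi and 1381 CPM at 5 dpi. FAP markers summed to 7381 and 5878 CPM (none of 8 at 0), mural markers to 1686 and 1463 CPM, tendon markers to 1270.3 and 5.31 CPM, and glial markers to 548 and 13.6 CPM. The part of these cells in the ratios of the gate was not tested. All 4 leukocyte markers and all 6 monocyte and macrophage markers were at 0 at 0 dpi and summed to 290.3 and 129 CPM at 5 dpi, when 26 of the 164 cells (15.9%) held a UMI of *Ptprc*. Ratios are therefore also given for cells positive for only 1 of *Pdgfra*, *Cdh5*, and *Ptprc*, called single-gate cells.

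Leukocytes made up much of the injured sample. Every cell was thinned to 1000 UMIs, which left 1067 cells at 0 dpi and 2315 at 5 dpi, since a deeper cell shows more genes. A UMI of *Ptprc* was found in 44 cells at 0 dpi (4.12%, 95% interval 3.01 to 5.50) and in 1076 cells at 5 dpi (46.5%, 44.4 to 48.5). Before thinning the shares were 5.47% and 62.7%. The share was thus 11.3 times as large after injury.

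*Pdgfra* went the other way. Its UMIs were found in 194 thinned cells at 0 dpi (18.2%, 15.9 to 20.6) and in 75 at 5 dpi (3.24%, 2.56 to 4.04), or in 44.1% and 13.01% of cells at full depth. In *Ptprc*-positive cells at 5 dpi, which should lack the gene, 0.742% held a UMI of *Pdgfra* after thinning, so the share at 5 dpi lay above this background. The *Cdh5* share was 3.09% (2.14 to 4.32) at 0 dpi and 4.84% (4.0 to 5.79) at 5 dpi after thinning, against 0.675% in *Ptprc*-positive cells at 5 dpi. At full depth it was 6.94% and 6.75%, so no difference in the share of *Cdh5*-positive cells stood out. Shares sum to a whole, so fewer cells of a type and more cells of another cannot be told apart.

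Among other markers, *Csf1r*, the receptor of macrophage growth factor, was found in 1 of 1067 thinned cells at 0 dpi and 43 of 2315 at 5 dpi. The T cell receptor subunit *Cd3e* was found in 0.469% (0.152 to 1.09) and 5.14% (4.28 to 6.12) of cells. *Cd79a*, a signalling subunit of the B cell receptor, was found in 3.09% (2.14 to 4.32) and 1.68% (1.20 to 2.30). Cells with *Cd3e* thus took a larger share at 5 dpi. The *Cd79a* share was smaller at 5 dpi with overlapping intervals, which does not show that the shares were equal. Over all cells, B cell genes summed to 729 CPM at 0 dpi and 287 CPM at 5 dpi, a ratio of 0.394 (0.378 to 0.411). Muscle stem cells were rare in both libraries: *Pax7* was found in 3 thinned cells at 0 dpi and 12 at 5 dpi, with overlapping intervals for the shares, and in 0.434% and 2.18% of cells at full depth. *Acta1*, the actin of muscle fibres, was found in 46.1% of thinned cells at 0 dpi and 23.3% at 5 dpi. In *Ptprc*-positive cells, which should lack it, its shares were 56.5% and 24.8%, so these shares were read as background.

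**Figure D1:**
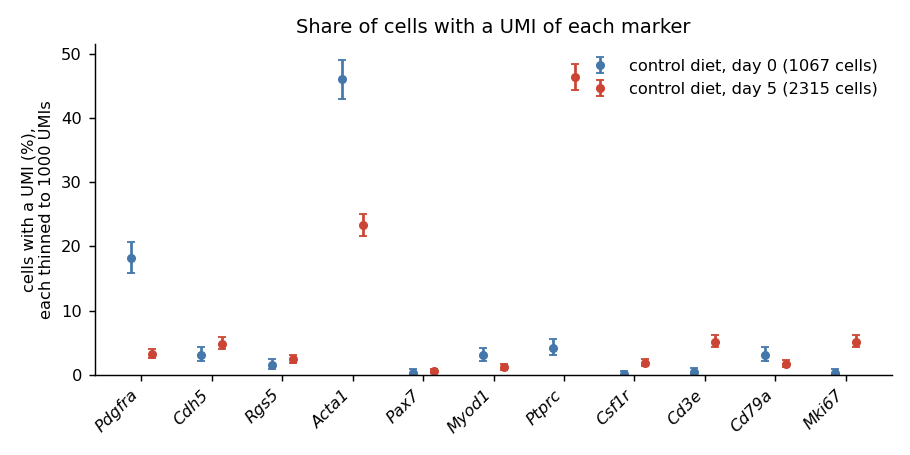
Share of cells (%) with a UMI of each marker in control muscle at day 0 (blue) and day 5 (red), after each cell was thinned to 1000 UMIs. Bars are exact 95% intervals; *Ptprc* goes from 4.12% to 46.5% and *Pdgfra* from 18.2% to 3.24%.

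Over all cells, 946 of 5686 genes (16.6%) were at least 2-fold higher at 5 dpi and 728 (12.8%) at least 2-fold lower, with a median log2 ratio of 0.11. All 20 macrophage genes over the floor and all 9 T and NK cell genes were higher, with medians of 5.11 and 3.47 on the log2 scale. Of 20 proliferation genes 19 were higher, with a median of 3.03. The 30 resting FAP genes held 21 that were lower and none that was higher, with a median of -2.14, and 15 of 16 muscle fibre genes were lower, with a median of -2.56. As bulk measures, these cannot tell fewer cells of a type from less RNA per cell.

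The 12 genes with the largest ratios upward were mostly of macrophages, neutrophils, and dividing cells. *C1qa*, a chain of complement C1q made by macrophages, had no UMI at 0 dpi and 2025 UMIs at 5 dpi (131 CPM), at least 259-fold higher. *C1qb*, *C1qc*, and the macrophage membrane gene *Ms4a7* had 1, 0, and 0 UMIs at 0 dpi and 1853, 1602, and 799 at 5 dpi. These UMIs came from few cells: 115 cells at 5 dpi held any *C1qa*, and 75.2% of its UMIs lay in single-gate *Ptprc*-positive cells. Of all UMIs at 5 dpi, 40.8% lay in such cells. The neutrophil alarmin *S100a9* went from 4 to 2172 UMIs, of which 93.0% lay in single-gate *Ptprc*-positive cells, and its partner *S100a8* from 1 to 1477 UMIs. *Il1rn*, the interleukin-1 receptor antagonist, had 0 and 969 UMIs. In the hypothyroid libraries of the same days, 10 of the 12 genes were at least 2-fold higher. *S100a9* and *S100a8* were not, with ratios of 0.650 (0.361 to 1.27) and 0.875 (0.502 to 1.65).

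Other genes of the 12 came from stroma or from several cell types. *Cthrc1*, a secreted collagen regulator, went from 2.19 to 342 CPM, with 66.3% of its UMIs at 5 dpi in single-gate *Pdgfra*-positive cells. These cells held 26.3% of all UMIs at 5 dpi. The acute phase protein *Saa3* went from 2 to 3299 UMIs, held by 62 cells. *Cdk1*, the mitotic kinase, had 0 and 885 UMIs, of which 46.8% lay in single-gate *Pdgfra*-positive and 18.3% in single-gate *Ptprc*-positive cells. *Pclaf*, a factor of the replication fork, and *Ube2c*, the E2 enzyme of the anaphase-promoting complex, completed the 12, with 1873 and 1667 UMIs at 5 dpi and 1 and 3 at 0 dpi.

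The 12 genes with the largest ratios downward included genes of resting stroma. At 0 dpi, single-gate *Pdgfra*-positive cells held 51.3% of all UMIs. They held 66.6% to 75.8% of the UMIs of *Gsn*, *Myoc*, *C7*, *Abca8b*, *Abca6*, and *Inmt*. For *Angptl7*, *Gm45570*, and *Gstp1* the shares were 46.8%, 51.8%, and 59.5%. *Gsn*, an actin-severing protein and the most abundant FAP marker, was at 19747 CPM at 0 dpi and 752 CPM at 5 dpi, 26.3-fold lower. *Myoc* (1353 to 40.0 CPM), the complement gene *C7*, the transporter genes *Abca8b* and *Abca6*, *Angptl7*, the methyltransferase gene *Inmt*, *Gstp1*, and *Gm45570* were 29.0-fold to 95.5-fold lower. Between the hypothyroid libraries of the same days, *Gstp1* had a ratio of 1.07 (0.972 to 1.18), while 11 of the 12 genes were at least 2-fold lower. Genes of another tissue were also in this group. *Fmod* and *Chad*, proteoglycan family genes of tendon and cartilage, were 27.6-fold and 91.4-fold lower. At 0 dpi, 81.4% and 79.4% of their UMIs lay in cells without a UMI of the 3 gate genes. Such cells held 40.3% of all UMIs at 0 dpi.

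Within *Pdgfra*-positive cells, 785 of 5310 genes (14.8%) were at least 2-fold higher at 5 dpi and 676 (12.7%) at least 2-fold lower, and the median log2 ratio was 0.00. By the mean of log2(CPM + 1) over cells, a scale that grows with depth, 2970 genes were higher and 186 lower. Matricellular and collagen genes, the machinery that processes collagen, and genes of cell division were higher. Genes of resting FAPs, several chemokines, complement genes, and fibre RNA were lower. *Pdgfra* itself chose these cells, and its level is not a result.

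Matrix genes led the genes that were higher. *Cthrc1* (ENSMUSG00000054196.8, mm39 chr15:38940327-38950517) had 2 UMIs at 0 dpi and 4298 at 5 dpi, or 0.651 and 851 CPM, a ratio of 1308 (362 to 10804). *Tnc* (mm39 chr4:63878022-63965253), which encodes the matricellular protein tenascin C, was at 6.18 and 2319 CPM, a ratio of 375 (240.0 to 623). *Postn* (mm39 chr3:54268530-54298459), the gene of periostin, was at 14.6 and 4413 CPM, a ratio of 301 (225 to 413). At 0 dpi these 3 genes had between 2 and 45 UMIs in the gate. The inhibitor of matrix metalloproteinases *Timp1* was at 12.7 and 2118 CPM, a ratio of 167 (122 to 235).

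These genes were not found in all cells alike. After thinning to 1000 UMIs, *Postn* was found in 6 of 502 cells at 0 dpi and in 239 of 315 cells (75.9%) at 5 dpi. *Cthrc1* was found in 0 and 132 cells (41.9%), *Tnc* in 4 and 148 (47.0%), and *Timp1* in 4 and 150 (47.6%). At 5 dpi *Tnc* reached 26 UMIs in a thinned cell while its median was 0. In thinned *Ptprc*-positive cells at 5 dpi, the shares of *Postn*, *Cthrc1*, and *Tnc* were 4.59%, 1.82%, and 3.24%. The part of free RNA and mixed droplets in the *Pdgfra* gate was not tested.

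**Figure D2:**
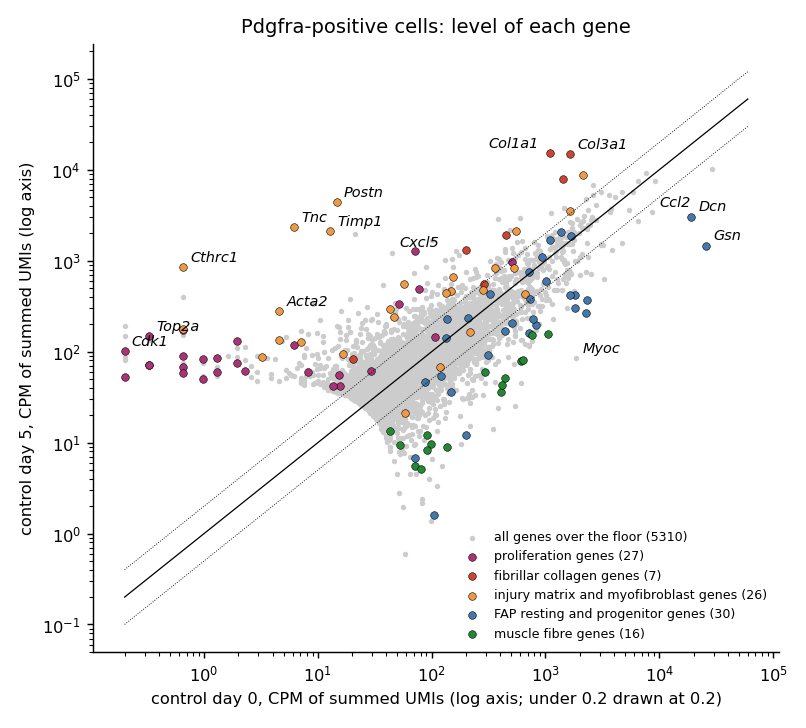
Level of each gene over the floor in *Pdgfra*-positive cells, control day 0 against control day 5, in CPM on log axes, with genes of 5 lists in colour. The solid line marks equal levels and the dotted lines 2-fold; *Cthrc1*, *Tnc*, *Postn*, and *Timp1* stand far above it, and *Gsn* and *Dcn* below.

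Fibrillar collagens were higher from a level that was already substantial. *Col1a1* was at 1094 CPM at 0 dpi and 15221 CPM at 5 dpi, a ratio of 13.9 (13.4 to 14.4). *Col3a1* was at 1635 and 14764 CPM, a ratio of 9.03 (8.77 to 9.29), and *Col5a1* at 200.2 and 1326 CPM, a ratio of 6.63. Of 7 fibrillar collagen genes over the floor 6 were higher and none was lower, with a median log2 ratio of 2.49 against 0.00 over all genes. The remaining gene, *Col5a3*, was at 286 and 557 CPM, a ratio of 1.94. Summed over the list, fibrillar collagens went from 5105.5 to 41880.6 CPM, a ratio of 8.20 (8.07 to 8.34).

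Enzymes that modify, fold, and crosslink collagen moved with it: 15 of 23 were higher and none was lower, with a median of 1.49. *Serpinh1*, the collagen chaperone HSP47, was at 596 and 2969.7 CPM, a ratio of 4.98. The crosslinking oxidases *Lox* and *Loxl3* had ratios of 7.92 and 11.9, while *Loxl2* had 1.31. *P4ha3* and *P3h1*, prolyl hydroxylases, had ratios of 44.6 (6 UMIs at 0 dpi, 20.3 to 122) and 8.71. Among secretory pathway genes and chaperones of the endoplasmic reticulum, 20 of 32 were higher and none lower, with a median of 1.30. The translocon subunit *Sec61b* went from 155 to 848 CPM and the retrieval receptor *Kdelr3* from 38.7 to 160.5 CPM. The stress-responsive chaperone *Hspa5*, with 1451 and 1533 CPM, and its co-chaperone *Dnajb9*, with 220.3 and 119 CPM, were not among them.

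Of 26 injury matrix and myofibroblast genes, 20 were higher and 1 was lower, with a median log2 ratio of 2.24. *Sparc*, a collagen-binding protein, was at 2152 and 8775 CPM. Contractile genes were split. Smooth muscle actin *Acta2* was at 4.56 and 277 CPM, a ratio of 60.8 (36.1 to 112), and *Tagln*, an actin-binding protein of smooth muscle, at 7.16 and 128 CPM. *Tpm1*, tropomyosin, was at 661 and 429 CPM, a ratio of 0.649. *Adam12*, a metalloprotease, and *Lrrc15*, a membrane protein, both known from activated fibroblasts, had ratios of 29.1 (14 UMIs at 0 dpi) and 27.1 (10 UMIs). *Itgbl1* was the gene that was lower, at 57.9 and 21.4 CPM.

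Basement membrane genes did not follow the fibrillar collagens. Of 15 over the floor 1 was higher and 6 were lower, with a median of -0.24. *Lama2*, the laminin chain that muscle fibres bind, was at 524 and 73.3 CPM, 7.15-fold lower, *Nid1* at 1299.9 and 568 CPM, and *Col4a1* at 762 and 338 CPM. *Col6a3*, of the microfibrillar collagen VI, was at 507 and 1392 CPM. The inhibitors *Timp2* and *Timp3* were 2.36-fold and 5.78-fold lower, in contrast to *Timp1*, while the stromelysin *Mmp3* (27.0 to 309 CPM) and the membrane-bound *Mmp14* (147 to 460.4 CPM) were higher.

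Genes of resting FAPs and their progenitor states were lower together. Of 30 over the floor 18 were at least 2-fold lower and none was higher, with a median log2 ratio of -1.57. *Gsn* (mm39 chr2:35146392-35197905) was at 25578 CPM at 0 dpi and 1469 CPM at 5 dpi, 17.4-fold lower. *Dcn*, the small proteoglycan decorin, was at 19082 and 3044 CPM, 6.27-fold lower. In thinned cells the median was 24 UMIs at 0 dpi and 1 UMI at 5 dpi for *Gsn*, and 18 and 3 UMIs for *Dcn*, and 61.6% and 79.7% of cells still held a UMI at 5 dpi against 99.4% and 99.8% at 0 dpi. *Clec3b*, *Smoc2*, and *Cd34* were 5.96-fold, 3.87-fold, and 3.38-fold lower.

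Markers of the progenitor states inside the FAP pool were less uniform. *Dpp4* was at 148 and 35.7 CPM, 4.16-fold lower. *Pi16*, which marks the same adventitial cells, was at 731 and 375 CPM, a ratio of 0.513 that just missed the 2-fold limit. *Ly6a*, the surface antigen SCA1 by which FAPs are sorted, was at 937 and 1093 CPM, and *Cd248*, endosialin, at 137 and 229.6 CPM. The largest ratios downward, of which *Inmt* and *Gsn* are in the list of resting genes, were in *Ces1d*, a lipid esterase (58.3 to 0.594 CPM), *Angptl7* (98.6 to 1.39 CPM), *Inmt* (106 to 1.58 CPM), *C7* (112 to 3.37 CPM), and *Gstm1* (535 to 25.6 CPM). *Myoc*, *Abca8b*, and *Abca6* were 21.8-fold, 24.4-fold, and 23.7-fold lower. *Gm45570* was lower as well (82.0 to 2.18 CPM), and *Ube2s*, an E2 enzyme of mitosis, was lower (123 to 5.55 CPM) in cells where other mitotic genes were higher.

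Dividing cells appeared among FAPs. A thinned cell was called cycling when it held UMIs of at least 3 of 25 cell cycle genes. None of 502 *Pdgfra*-positive cells met this at 0 dpi, which allows a share of up to 0.598%, and 51 of 315 did at 5 dpi (16.2%, 12.3 to 20.7). The share was 5.47% (4.36 to 6.75) in *Ptprc*-positive cells and 3.97% (1.47 to 8.45) in *Cdh5*-positive cells at 5 dpi, so at the same depth *Pdgfra*-positive cells held the highest share of the 3 gates, with an interval apart from the other two. Of 27 proliferation genes 25 were higher and none lower, with a median log2 ratio of 5.53. *Top2a*, the topoisomerase of mitotic chromosomes, went from 1 to 742 UMIs and *Mki67* from 2 to 448 UMIs. *Pcna*, with 107 and 144 CPM, was between the limits.

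The promoters of 3 of these mitotic genes are printed because the genes were at 0 to 2 UMIs at 0 dpi and at 507 to 865 UMIs at 5 dpi. Each is the RefSeq window from 250 bases before to 50 bases after the gene's start, 5′ to 3′ on the gene's strand, in GRCm38.p6: *Cdk1* chr10:69352863-69353162 (minus strand), *Ube2c* chr2:164769679-164769978 (plus strand), and *Top2a* chr11:99024140-99024439 (minus strand). Capitals mark the cell cycle genes homology region (CHR, TTTGAA, or TTCAAA on the other strand), the element bound by the DREAM complex, and the CCAAT box (CCAAT, or ATTGG on the other strand), bound by NF-Y.
Cdk1: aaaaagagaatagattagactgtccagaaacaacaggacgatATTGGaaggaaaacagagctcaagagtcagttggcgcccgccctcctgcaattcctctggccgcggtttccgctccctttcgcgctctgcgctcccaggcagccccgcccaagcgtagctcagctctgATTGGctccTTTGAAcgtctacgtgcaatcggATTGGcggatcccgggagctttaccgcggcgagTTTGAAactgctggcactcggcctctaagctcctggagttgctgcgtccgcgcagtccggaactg
Ube2c: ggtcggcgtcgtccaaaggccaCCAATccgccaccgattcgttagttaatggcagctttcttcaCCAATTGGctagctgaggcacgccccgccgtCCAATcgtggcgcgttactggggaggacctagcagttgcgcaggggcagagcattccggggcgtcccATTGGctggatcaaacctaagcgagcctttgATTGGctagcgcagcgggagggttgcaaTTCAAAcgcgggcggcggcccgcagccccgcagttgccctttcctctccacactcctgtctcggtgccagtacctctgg
Top2a: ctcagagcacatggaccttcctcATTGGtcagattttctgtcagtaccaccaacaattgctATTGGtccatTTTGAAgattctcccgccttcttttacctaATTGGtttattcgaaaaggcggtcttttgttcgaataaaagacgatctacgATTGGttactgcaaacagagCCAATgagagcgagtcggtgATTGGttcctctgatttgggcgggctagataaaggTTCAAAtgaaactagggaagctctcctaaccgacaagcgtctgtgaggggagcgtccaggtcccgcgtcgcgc

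A CHR began 15, 29, and 23 bases before the start of *Cdk1*, *Ube2c*, and *Top2a*, and a further one 71 bases before *Cdk1* and 179 bases before *Top2a*. CCAAT boxes stood upstream of the nearest CHR in all 3, at 48, 57, and 58 bases before the start at the closest, and in *Ube2c* a pair of CCAAT boxes on opposite strands overlap. Among the 40 windows of the 38 proliferation genes that matched RefSeq, of 45 in the list, 20 held a CHR (50.0%) and 32 a CCAAT box (80.0%) on either strand. Among all 32851 windows the shares were 17.9% and 37.4%. A match is a string of letters and was not tested as a binding site.

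Cycling FAPs differed in part from the others at 5 dpi. The 51 cycling cells were set beside the 264 remaining thinned *Pdgfra*-positive cells, over genes with a mean of at least 100 CPM, of which 169 of 1698 were at least 2-fold higher in cycling cells and 160 lower, with a median log2 ratio of 0.12. Chemokine and cytokine genes were lower, 7 of 16 by at least 2-fold, with a sum of 14735 CPM in cells not cycling and 8549 CPM in cycling cells, a ratio of 0.580 (0.524 to 0.641). Resting genes had a sum of 21019 and 15019.6 CPM, a ratio of 0.715. The sum of injury matrix genes had a ratio of 1.04 (0.984 to 1.10), and secretory pathway genes had a ratio of 1.28 (1.19 to 1.39). Fibrillar collagens had a ratio of 0.836 (0.795 to 0.879). Single matrix genes departed from these sums both ways. *Tnc* was at 1580 CPM in cells not cycling and 3137 CPM in cycling cells, a ratio of 1.99 (1.64 to 2.39), and *Timp1* had a ratio of 2.12 (1.72 to 2.60), while *Fn1*, fibronectin, had 0.685 (0.569 to 0.819) and *Thbs1*, thrombospondin 1, 0.270 (0.138 to 0.481). The intervals for *Cthrc1* (0.625 to 1.28) and *Postn* (0.787 to 1.06) included 1.

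Chemokines and cytokines did not move as a group in *Pdgfra*-positive cells: of 21 over the floor 7 were higher and 5 lower, with a median of 0.52. *Cxcl5*, a ligand that draws neutrophils, went from 44.6 to 1226 CPM, a ratio of 27.5, and was found in 6 cells at 0 dpi and 120 cells at 5 dpi. *Il1rl1*, the receptor of interleukin-33, went from 37.1 to 543 CPM, and *Lif* from 33.2 to 257 CPM. *Cxcl12*, the ligand that retains CXCR4-bearing cells, was at 195 and 498 CPM. Others were lower: *Csf1*, the macrophage growth factor, at 2536 and 719 CPM, the eotaxin *Ccl11* at 832 and 195 CPM, and *Cxcl1* at 6456 and 2737 CPM.

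*Ccl2*, the ligand that recruits monocytes, was the most abundant chemokine at 0 dpi and depended on the scale. Summed UMIs gave 8654 CPM at 0 dpi and 3412 CPM at 5 dpi, a ratio of 0.394 (0.387 to 0.402). It was detected in 218 of 508 cells at 0 dpi and in 213 of 316 cells at 5 dpi. On the mean of log2(CPM + 1) over cells, which weighs detection more than amount, the difference was 1.91 in the other direction, and *Ccl7*, at 3079 and 1477 CPM, turned as well (2.43). Fewer UMIs thus lay in a larger share of deeper cells.

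Growth factors and their regulators were mixed, with 7 of 29 higher and 9 lower. *Inhba*, which encodes the activin A subunit, was at 88.5 and 842 CPM, the Wnt antagonist *Sfrp2* at 33.5 and 209 CPM, *Ccn4* at 7.16 and 169 CPM, and the follistatin-like gene *Fstl1* at 1469 and 3791 CPM. *Igf1*, a growth factor for muscle fibres, differed little (285 and 297 CPM, ratio 0.959 to 1.13). *Bmp4*, *Bmp5*, and *Igfbp6*, the binding protein of IGF2, were 7.0-fold, 5.10-fold, and 6.30-fold lower. Complement genes of stroma were mostly lower, 6 of 9, among them *C3* (1042 and 376 CPM) and *Serping1* (2014 and 702 CPM), while *Cfb*, the factor B of the alternative pathway, went from 6.83 to 75.7 CPM.

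Genes tied to thyroid hormone and lipid were few. *Dio3*, the deiodinase that inactivates thyroid hormone, went from 4 to 270 UMIs (1.30 to 53.5 CPM, a ratio of 41.1 with an interval of 15.9 to 152), held by 38 cells at 5 dpi. *Klf9*, a gene that thyroid hormone induces in many tissues, was at 1257 and 476 CPM, and the receptor gene *Thra* at 76.8 and 49.5 CPM. *Angptl4*, an inhibitor of lipoprotein lipase, went from 2 to 779 UMIs, and the lipase *Lpl* itself was at 387 and 139.9 CPM. Of 26 immediate early genes 2 were higher and 7 lower, with a median of -0.42. *Maff* was 4.94-fold lower, *Fos* was at 1443 and 975 CPM, and *Egr2* was higher (18.6 to 84.0 CPM). These genes respond to tissue dissociation as well as to signals in the animal, and the part of dissociation was not tested.

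Some genes that were higher in the gate were also found in leukocytes. *Cd74* and *H2-Aa*, of MHC class II antigen presentation, had no UMI at 0 dpi and 192 and 149 CPM at 5 dpi, at least 196-fold and 153-fold higher. In single-gate *Pdgfra*-positive cells the bounds were 38.0-fold and 27.5-fold, and *Cd74* was at 3548 CPM in single-gate *Ptprc*-positive cells. Of the 967 UMIs of *Cd74* at 5 dpi, 152 lay in single-gate cells, so cells of more than 1 gate held most of them. *Spp1*, osteopontin, went from 21.2 to 1952 CPM and was at 1576 CPM in single-gate *Pdgfra*-positive and 1796 CPM in single-gate *Ptprc*-positive cells at 5 dpi. Elsewhere among the genes that were higher, *Saa3* went from 2 to 2036 UMIs, held by 36 cells. Over all cells at 5 dpi, 38.9% of *Saa3* UMIs lay in single-gate *Pdgfra*-positive cells and 22.8% in cells of more than 1 gate. Single-gate *Ptprc*-positive cells held 1.88%. Of all UMIs at 5 dpi, these groups of cells held 26.3%, 7.84%, and 40.8% in the same order. *Chl1* and *Ltbp2*, with 1 and 2 UMIs at 0 dpi, had 673 and 886 UMIs at 5 dpi, and *Pclaf* had 1 and 758.

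All 16 muscle fibre genes over the floor were at least 2-fold lower in *Pdgfra*-positive cells, with a median log2 ratio of -3.04, and all 16 were lower in *Cdh5*-positive cells, with a median of -3.26. FAPs and endothelial cells do not express these genes. *Acta1* was at 1060.03 and 156 CPM in *Pdgfra*-positive cells, and at 4596 and 483 CPM in *Cdh5*-positive cells. The level of fibre RNA in droplets of both kinds of cell was thus lower after injury.

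Within *Cdh5*-positive cells, 740 of 5742 genes (12.9%) were at least 2-fold higher at 5 dpi and 893 (15.6%) lower, and the median log2 ratio was -0.04. By the mean of log2(CPM + 1) over cells, 2569 were higher and 113 lower. With 257421 UMIs at 0 dpi, a level of 25 CPM stands for about 6 UMIs there, so intervals were wide. Genes of sprouting, of basement membrane, of chemokines, and of the interferon response were higher. Genes of the capillary and larger vessel states and immediate early genes were lower.

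Of 23 sprouting genes over the floor 14 were higher and 4 lower, with a median log2 ratio of 1.21. Among the 14, *Col4a1*, *Col4a2*, *Hspg2*, *Lamb1*, and *Nid2* also stand in the list of basement membrane genes. *Angpt2*, a ligand by which endothelial cells destabilise vessels, was at 46.6 and 257 CPM, a ratio of 5.51 (3.11 to 10.8). *Aplnr*, the apelin receptor, was at 15.5 and 98.5 CPM, and *Nrp2*, a VEGF-C and semaphorin receptor, at 183 and 604 CPM. *Pgf*, placental growth factor, had 2 UMIs at 0 dpi and 317 at 5 dpi (7.77 and 240.2 CPM), a ratio of 30.9 (8.49 to 256). In thinned cells *Pgf* was found in 0 of 60 cells at 0 dpi and in 19 of 151 (12.6%) at 5 dpi, and *Angpt2* in 3 and 20 cells. *Cxcr4*, a tip cell gene, went from 15.5 to 174 CPM, with a ratio of 11.3 in single-gate cells.

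The receptors of VEGF did not follow. *Flt1*, *Kdr*, *Nrp1*, and the angiopoietin receptor *Tek* had ratios of 0.433, 0.686, 0.320, and 0.486. *Kdr* was at 594 CPM at 0 dpi and 408 CPM at 5 dpi. *Edn1* (mm39 chr13:42454952-42461467), the vasoconstrictor endothelin 1, had 5 UMIs at 0 dpi and 578 at 5 dpi (19.4 and 438 CPM), a ratio of 22.6 (9.61 to 69.7). It was found in 3 of 60 and 29 of 151 thinned cells and was at 2.23 CPM in single-gate *Ptprc*-positive cells at 5 dpi. *Slc7a11*, a cystine transporter, went from 35.0 to 588 CPM, and its 9 UMIs at 0 dpi lay in 2 cells. *AA467197* had 0 and 242 UMIs, at least 15.7-fold higher.

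Basement membrane genes were higher in *Cdh5*-positive cells, unlike in *Pdgfra*-positive cells. Of 17 over the floor 8 were higher and 2 lower, with a median of 0.64. *Col4a1*, a chain of collagen IV, was at 532 and 2068 CPM, a ratio of 3.89 (3.27 to 4.65), and was found in 40.0% of thinned cells at 0 dpi and 69.5% at 5 dpi. *Col4a2*, *Hspg2* (perlecan), and *Col15a1* had ratios of 2.97, 3.34, and 3.31, and *Col18a1*, the source of endostatin, 5.91 (14 UMIs at 0 dpi). *Nid2* went from 3 to 131 UMIs, a ratio of 8.52 (2.85 to 41.8). *Lama4* was level (148 and 155 CPM), and *Lamb2* was at 136 and 55.3 CPM, but turned to a difference of 0.055 on the mean of log2(CPM + 1) over cells.

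Of 8 fibrillar collagen genes 5 were higher and 2 lower, the minor chains *Col11a1* (33 UMIs at 0 dpi and 17 at 5 dpi) and *Col11a2* (21 and 1). Among the higher ones, *Col3a1* was at 109 and 2069.8 CPM, a ratio of 19.0 (13.1 to 28.7). Its 2731 UMIs at 5 dpi lay in 51 of 164 cells. In single-gate *Cdh5*-positive cells it was at 24.1 and 1440.2 CPM, while single-gate *Ptprc*-positive cells held 210.4 CPM at 5 dpi and single-gate *Pdgfra*-positive cells 15623 CPM. *Col1a1* was at 734 and 2177 CPM, and its ratio of 2.96 was 1.78 in single-gate cells. *Col5a1* had 1 UMI at 0 dpi and 271 at 5 dpi. At 5 dpi the level of *Col3a1* in single-gate *Cdh5*-positive cells was thus above that in *Ptprc*-positive cells. It was far below that in *Pdgfra*-positive cells. The part of FAP RNA in *Cdh5*-positive droplets was not tested.

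**Figure D3:**
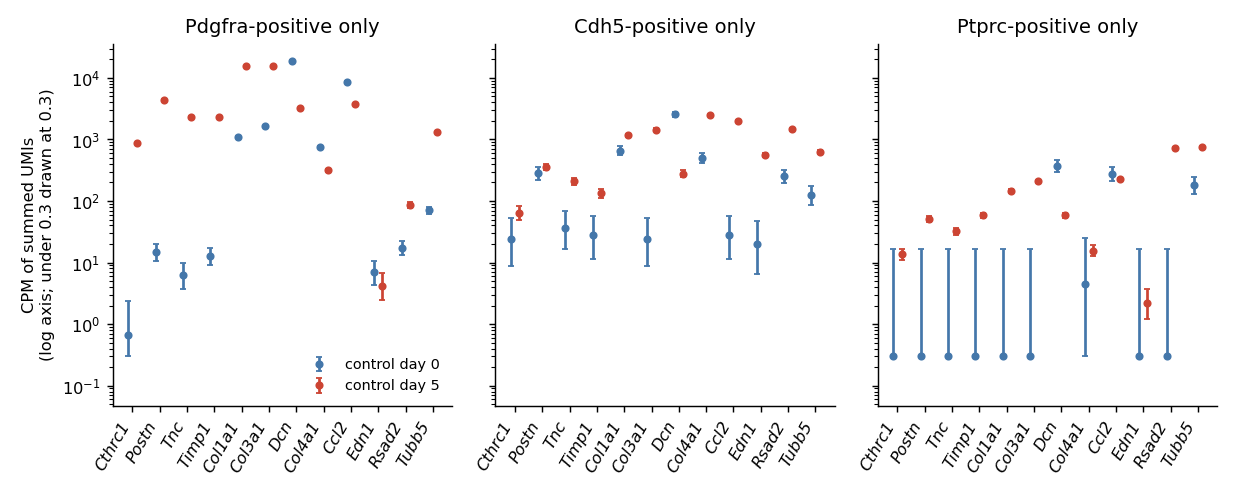
Levels in CPM (log axis) of 12 genes in cells positive for only *Pdgfra*, only *Cdh5*, or only *Ptprc*, at control day 0 (blue) and day 5 (red), with exact 95% intervals. *Cthrc1*, *Postn*, *Tnc*, and *Timp1* are highest in *Pdgfra*-positive cells at day 5, *Col4a1* and *Edn1* in *Cdh5*-positive cells, and points and interval ends under 0.3 are drawn at 0.3.

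Genes of quiescent capillaries were lower. Of 19 capillary and lipid uptake genes 10 were lower and 1 was higher, with a median of -1.03. *Timp4* was at 194 and 16.7 CPM, 11.6-fold lower. The capillary transcription factors *Meox2* and *Tcf15* were 3.30-fold and 3.60-fold lower, and the fatty acid transporter *Cd36* (1026 and 499 CPM) and the water channel *Aqp1* (1189 and 584 CPM) were 2.06-fold and 2.04-fold lower. *Fabp4*, which carries fatty acids in the cytosol, was at 6223 and 6638 CPM and *Gpihbp1*, which anchors lipoprotein lipase to capillaries, at 194 CPM in both. *Fabp5* was the gene that was higher, at 139.8 and 418 CPM. Shear stress factors *Klf2* and *Klf4* were at 1301 and 521 CPM and at 1088 and 421 CPM.

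Genes of larger vessels and leukocyte adhesion were mostly lower in summed UMIs, 8 of 15 with 1 higher, and a median of -1.09. These values rested on few cells. *Selp*, P-selectin, was at 921 and 272 CPM, but 237 UMIs at 0 dpi lay in 7 cells and 359 UMIs at 5 dpi in 31 cells. On the mean of log2(CPM + 1) over cells its difference was 0.92 in the other direction, and that of *Vwf*, von Willebrand factor (190.3 and 80.3 CPM), was 0.78, and the list's median turned to 0.89. *Ackr1*, a chemokine receptor of venules, was at 148 and 20.5 CPM and turned to 0.12. *Icam1*, an adhesion molecule that inflammation raises, was at 272 and 501 CPM, and *Vcam1* at 264 and 233 CPM. Of 16 arterial and Notch genes 5 were lower, among them *Stmn2* (225 and 49.3 CPM) and *Alpl* (144 and 15.2 CPM), and 1 was higher.

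Of 24 endothelial junction and identity genes 3 were higher and 5 lower, with a median of -0.22, which lies near the shares over all genes of the gate (12.9% and 15.6%). *Pecam1*, the adhesion molecule CD31, was at 792 and 994 CPM, and *Cldn5*, the claudin of tight junctions, at 478 and 899.6 CPM. *Cd93* and the transcription factor *Ets1* were higher, with ratios of 2.19 and 2.41. *Ptprb*, the VE-cadherin phosphatase, was at 1107 and 358 CPM.

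Chemokines and cytokines in *Cdh5*-positive cells were higher more often than lower, 11 against 6 of 20, with a median of 1.13. *Ccl2* (mm39 chr11:81926397-81928280) was at 62.2 CPM at 0 dpi and 1844 CPM at 5 dpi, a ratio of 29.7 (18.2 to 52.0), which was 70.8 in single-gate cells. In thinned cells it was found in 2 of 60 and 30 of 151 cells, and it reached 31 UMIs in a cell at 5 dpi. Single-gate *Ptprc*-positive cells held 228 CPM. *Ccl2* was thus higher in *Cdh5*-positive cells while its summed level was lower in *Pdgfra*-positive cells. *Csf1* moved in the same 2 directions, with 73.8 and 441 CPM in *Cdh5*-positive cells, as against 2536 and 719 CPM in *Pdgfra*-positive cells.

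*Cxcl2* was at 218 and 1162 CPM and *Cxcl10* at 54.4 and 709 CPM. *Cxcl5* and *Il1rl1* had no UMI at 0 dpi and 629 and 452 UMIs at 5 dpi, but in 11 and 13 cells. *Cxcl12*, which was higher in FAPs, was at 792 and 364 CPM. *Il33*, an alarmin of vessels, was at 544 and 69.0 CPM, with its UMIs in 5 cells at 0 dpi and 11 at 5 dpi. With a gate of 2 UMIs its log2 ratio turned to 1.43.

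Interferon-stimulated genes were higher in part. Of 33 over the floor 15 were higher and 1 lower, with a median of 0.82. *Rsad2*, the antiviral enzyme viperin, was at 249 and 1227 CPM, a ratio of 4.94 (3.84 to 6.44). It was found in 9 of 60 thinned cells (15%) at 0 dpi and in 64 of 151 (42.4%) at 5 dpi. *Ifit1* and *Ifit3*, which bind viral RNA or the complexes that do, were at 209.8 and 515 CPM and at 105 and 311 CPM. *Usp18*, which dampens interferon signalling, had 4 UMIs at 0 dpi and a ratio of 5.90 (2.25 to 22). *Isg15*, a ubiquitin-like protein, was at 575 and 468 CPM, and the GTPase *Iigp1* at 824 and 484 CPM, so the list was not uniform. In *Pdgfra*-positive cells 9 of 26 were higher and 3 lower, with a median of 0.22.

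RefSeq promoter windows of 3 of these genes are printed for the interferon-stimulated response element (ISRE) they hold, the element through which type I interferon acts on its target genes. The windows lie in GRCm38.p6 at chr12:26456403-26456702 (*Rsad2*, minus strand), chr19:34640639-34640938 (*Ifit1*, plus strand), and chr19:34583279-34583578 (*Ifit3*, plus strand). Capitals mark the ISRE core, a pair of GAAA repeats set 2 bases apart, which reads as TTTC repeats on the other strand and was searched on both.
Rsad2: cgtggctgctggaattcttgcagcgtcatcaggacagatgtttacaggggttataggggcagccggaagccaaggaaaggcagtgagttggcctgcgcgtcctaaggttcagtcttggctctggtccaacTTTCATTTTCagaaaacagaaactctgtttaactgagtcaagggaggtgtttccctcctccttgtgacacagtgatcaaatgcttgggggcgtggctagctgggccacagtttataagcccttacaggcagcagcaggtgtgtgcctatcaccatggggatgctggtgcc
Ifit1: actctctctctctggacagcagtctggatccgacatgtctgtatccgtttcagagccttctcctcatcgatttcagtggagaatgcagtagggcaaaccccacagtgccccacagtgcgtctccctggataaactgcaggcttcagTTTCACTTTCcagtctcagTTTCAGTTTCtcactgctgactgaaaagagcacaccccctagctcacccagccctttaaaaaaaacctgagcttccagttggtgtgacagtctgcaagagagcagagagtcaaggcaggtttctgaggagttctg
Ifit3: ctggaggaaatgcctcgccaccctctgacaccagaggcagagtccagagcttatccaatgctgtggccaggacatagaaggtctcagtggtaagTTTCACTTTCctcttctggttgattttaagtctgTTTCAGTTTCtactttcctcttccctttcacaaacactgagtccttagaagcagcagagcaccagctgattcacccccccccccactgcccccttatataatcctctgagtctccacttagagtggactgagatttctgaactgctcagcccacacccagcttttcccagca

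The core began 120 bases before the start of *Rsad2*, 104 and 85 bases before *Ifit1*, and 156 and 122 bases before *Ifit3*. It was found in 15 of 29 windows (51.7%) of the 25 listed interferon-stimulated genes, of 36, that matched RefSeq, and in 3.44% of all windows. In the windows of proliferation genes its share was 5.00%, and interferon-stimulated genes held a CHR in 24.1% and a CCAAT box in 34.5% of windows.

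Of 16 division genes 10 were higher and 1 lower, with a median of 1.43 against 5.53 over the 27 in *Pdgfra*-positive cells. *Tubb5*, a tubulin, was at 128 and 674 CPM and *Ccnd1*, cyclin D1, at 46.6 and 214 CPM. Immediate early genes were lower, 12 of 26 with none higher: *Fos* was at 3046 and 690.4 CPM, *Egr1* at 3271 and 781 CPM, and *Jun* at 2956 and 847 CPM, while *Dusp1* was at 749.7 and 922 CPM. Of 83 ribosomal protein genes 15 were higher and 2 lower. Of the 12 genes named as lower, which held UMIs in at least 20 cells at 0 dpi and were ranked by the end of the interval nearest 1, 4 were not fibre genes. *Mgp*, matrix Gla protein, was at 3570.0 and 232 CPM, with its 919 UMIs at 0 dpi in 22 cells, and *Ube2s* had 34 and 6 UMIs. *Sap18* (1231 and 99.3 CPM) and the mitochondrial *mt-Nd4l* (466 and 38.7 CPM) were 12.4-fold and 12.1-fold lower. The remaining 8 of these 12 genes were *Myl1*, *Tnnt3*, *Ckm*, *Tnnc2*, *Eno3*, *Acta1*, *Tnni2*, and *Mylpf*, all of muscle fibres.

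MHC class II genes were higher in this gate too, and all 4 over the floor. *Cd74* went from 3 to 723 UMIs, *H2-Aa* from 1 to 482, and *H2-Eb1* from 1 to 372, in 24, 22, and 22 cells at 5 dpi. Their ratios of 47.0 (16.0 to 229), 94.0 (16.8 to 3722), and 72.6 (12.9 to 2874) were 11.1, 13.4, and 12.6 in single-gate cells. *Ptprc* itself went from 0 to 156 UMIs and the interferon-inducible *Ifi205* from 0 to 177. The share of these genes that belongs to leukocytes caught with endothelial cells was not tested.

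**Figure D4:**
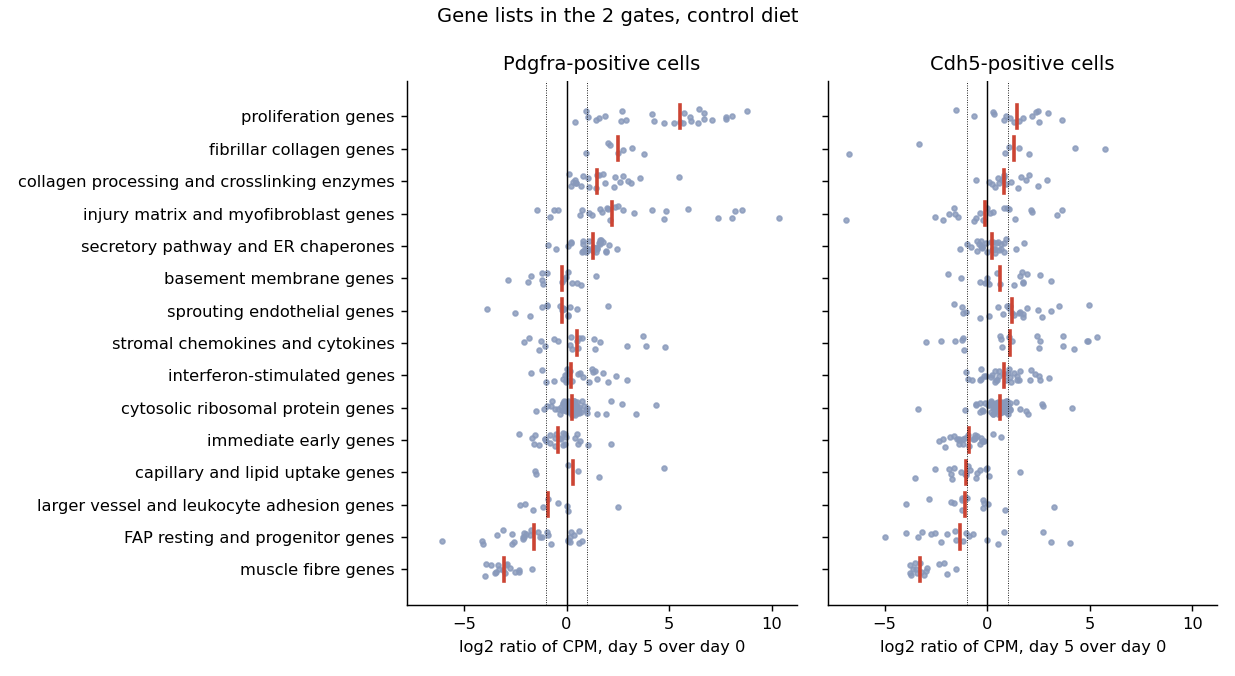
Log2 ratio of CPM, day 5 over day 0, of each gene over the floor (points) in 15 lists, in *Pdgfra*-positive and *Cdh5*-positive cells, with each list's median (red bar), the median of all genes (solid line), and 2-fold limits (dotted lines). Among the lists drawn, proliferation genes and fibrillar collagens have the highest medians in *Pdgfra*-positive cells (5.53 and 2.49); lists not drawn include MHC class II genes (6.82 over 4 genes). Basement membrane and sprouting genes lie higher in *Cdh5*-positive cells, and fibre genes are low in both.

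*Pdgfra*-positive and *Cdh5*-positive cells were set side by side over the 4607 genes above the floor in both. Of these, 207 were at least 2-fold higher in both gates and 207 lower in both, while 2764 were between the limits in both. Over all genes of each gate, 14.8% were higher and 12.7% lower in *Pdgfra*-positive cells, and 12.9% and 15.6% in *Cdh5*-positive cells. In opposite directions moved 25 genes that were higher in *Pdgfra*-positive and lower in *Cdh5*-positive cells and 28 genes with the reverse pattern. Another 400 passed the limit upward and 317 downward in *Pdgfra*-positive cells alone, and 366 and 293 in *Cdh5*-positive cells alone, which does not show that the gates differed for these genes.

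A few genes moved at least 4-fold the same way in single-gate cells of all 3 kinds, among 2024 genes with a mean of at least 50 CPM in each. They were chosen after their values were seen. The 8 that were higher were *Col3a1*, *Cxcl3*, *Fscn1*, *Lgals3bp*, *Rpl24*, *Rsad2*, *Tubb5*, and *Wdr89*. *Tubb5* was at 70.9 and 1308 CPM in *Pdgfra*-positive, 125 and 626 CPM in *Cdh5*-positive, and 179.6 and 753 CPM in *Ptprc*-positive cells. The neutrophil ligand *Cxcl3* had 1.31 and 424 CPM, 0 and 222 CPM, and 0 and 391 CPM in the same order, and *Fscn1*, which bundles actin, 14.8 and 188 CPM, 32.2 and 349 CPM, and 0 and 119 CPM. Among the 4 that were lower were *Dcn*, *Gm10076*, and *mt-Nd4l*. *Gm10076*, *Rpl24*, and *Wdr89* share sequence with other gene copies, and how reads were split among copies is uncertain. None of the 4 lower genes was also at least 2-fold lower in all 3 gates of the hypothyroid pair, and 4 of the 8 higher ones were higher there. In single-gate cells of that pair, in the same order, *Gm10076* had ratios of 5.10, 3.94, and 1.90, and *mt-Nd4l* 2.86, 2.56, and 3.19. Both were thus higher there in each gate, while *Dcn* had 0.147, 5.39, and 16.0. The cause was not tested.

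The hypothyroid libraries at 0 and 5 dpi come from mice on the iodine-deficient diet with propylthiouracil and share no library with the control pair. There, 14.8% of genes were higher and 22.3% lower at 5 dpi in *Pdgfra*-positive cells, and 15.2% and 30.2% in *Cdh5*-positive cells. In *Pdgfra*-positive cells 652 genes were at least 2-fold higher in the control pair among the 4780 over the floor in both pairs. Of them 412 (63.2%) were also higher in the hypothyroid pair, which is 58.7% of the genes higher there, and 5 were at least 2-fold lower. Of 640 lower genes 491 (76.7%) were lower in both, which is 47.5% of those lower in the hypothyroid pair, and 8 were higher. All 12 named genes that were higher were higher in the hypothyroid pair as well. Among them were *Cthrc1* (ratio 364, 125 to 1766), *Tnc* (1678, 301 to 66296), and *Postn* (126, 89.0 to 186). The hypothyroid library at 0 dpi held 3 UMIs of *Cthrc1* and 1 of *Tnc*. *Saa3* and *Chl1* had 0 UMIs in it and were at least 2.74-fold and 6.05-fold higher, against ratios of 620 and 410 in the control pair. Of the 12 that were lower, 11 were lower in the hypothyroid pair, all but *Ube2s* (0.736). *Acta2*, with a ratio of 60.8 in the control pair, had 2.32 there, and *Ccl2* lay on opposite sides, with 0.394 and 2.61.

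In *Cdh5*-positive cells the 2 pairs had less in common, but the hypothyroid gate held 24 cells at 0 dpi. Of 646 genes higher in the control pair 228 (35.3%) were higher in the hypothyroid pair and 67 (10.4%) lower, and of 587 lower genes 320 (54.5%) were lower and 61 (10.4%) higher. The shared genes were 29.6% of those higher and 24.7% of those lower in the hypothyroid pair. *Ccl2* had ratios of 29.7 and 259 and *Edn1* of 22.6 and 7.29. *Col4a1* had 3.89 and 1.27, and *Angpt2* 5.51 and 1.09. *Mgp* had 0.065 and 0.880. Whether the diets differed in these responses was not tested, since each combination has 1 library.

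**Figure D5:**
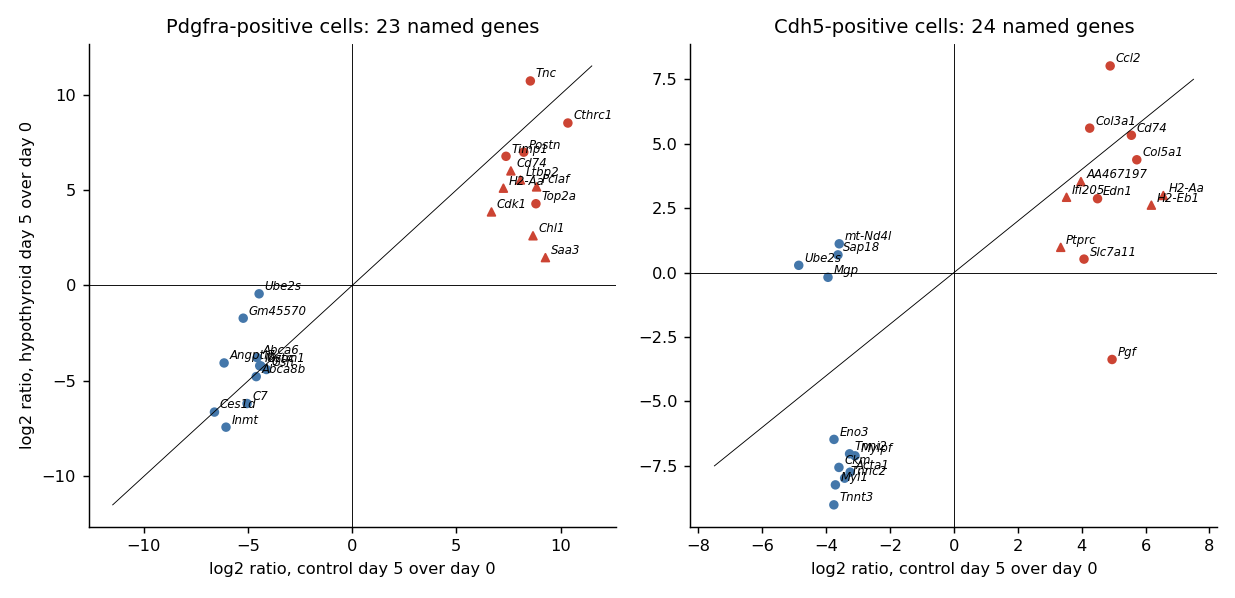
Log2 ratio, day 5 over day 0, of the named genes described in the text, in each gate, in the control pair (x axis) and the hypothyroid pair (y axis). Triangles mark bounds where a library held 0 UMIs, the diagonal marks equal ratios, and the genes were chosen on the x axis. In *Cdh5*-positive cells *Pgf*, *mt-Nd4l*, *Sap18*, and *Ube2s* have ratios on opposite sides of 1 in the 2 pairs, and the hypothyroid intervals of *Sap18* and *Ube2s* include 1.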

How the data were processed

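Single-cell suspensions of pooled TAMs were captured with 10x 3′ V3 reagents, and the labels name Cell Ranger, Partek, and the build mm39. The deposited values are log2(CPM + 1) per gene and cell, made by the authors in Partek Flow after filters on UMIs, genes, and mitochondrial share. The order of columns in each file showed more than 1 run of barcodes. Only first runs were used, and the 1152 later columns at 0 dpi and the 2427 at 5 dpi were left out.

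Since 1 UMI is the commonest nonzero entry of a cell, that cell's commonest nonzero value was taken as 1 UMI, and UMIs were computed from it. Of the values, 99.933% at 0 dpi and 99.943% at 5 dpi came out whole within 0.05 UMI. UMIs were pooled per population. Intervals were exact (Poisson for levels, conditional binomial for ratios, Clopper-Pearson for shares), at 95%, and those of ratios were tested on simulated data. In that simulation all cells of a library shared the same expected levels, so differences between cells were left out. With 1 library per time point, there was no replicate error, and no p-value was computed. No doublet caller was run, and cells positive for more than 1 gate gene were counted and left out in the single-gate values. The 12 named genes in each direction and population were those ranked first by the end of the ratio's interval that lies nearest to 1, among genes found in at least 20 cells of the higher library. Other genes came from 33 lists. A few genes chosen by these rules are not reported here. The population, the lists, and the alternatives were chosen with earlier results of these data known. Promoter windows came from RefSeq and were matched by gene symbol. Analyses used Python 3.11.15 with numpy 2.4.6, scipy 1.17.1, and pandas 2.3.3.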

Additional observations from a re-analysis of the deposited data

Results flagged for a closer look

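Among reported genes with at least 20 UMIs in the hypothyroid pair, 5 had a ratio of at least 2-fold in the control pair and a whole 95% interval at least 2-fold the other way in the hypothyroid pair. *mt-Nd4l* in *Cdh5*-positive cells, with ratios of 0.0829 and 2.17, missed this, since its hypothyroid interval was 1.40 to 3.53. The difference between the diets was not tested, since each combination has 1 library. In *Pdgfra*-positive cells, *Ccl2* had a ratio of 0.394 in the control pair and 2.61 (2.53 to 2.68) in the hypothyroid pair. In *Cdh5*-positive cells, of which the hypothyroid library at 0 dpi held 24, *Pgf* had ratios of 30.9 and 0.0966 (0.0677 to 0.138) and *Ets1* of 2.41 and 0.279 (0.225 to 0.347). *Il33* had a ratio of 0.127 in the control pair and was at least 4.03-fold higher in the hypothyroid pair, and *Selp* had 0.296 and was at least 3.38-fold higher, both with 0 UMIs in the hypothyroid library at 0 dpi.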

How the results depend on the processing

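No paired analysis was possible because each time point has 1 library, so no replicate could be left out or blocked either. Of 177 reported genes that were at least 2-fold higher or lower, 176 stayed so after centring on the median of all genes, 165 by the mean of CPM over cells, 160 of 176 after thinning, and 140 by the difference of mean log2(CPM + 1). Among genes reported in a gate, 146 of 153 stayed so in single-gate cells, and 153 of 154 with a gate of 2 UMIs. Leaving out the 528 recurring cells, an alternative chosen after seeing the data, kept all 177. Centring shifts log2 ratios by 0.11 in all cells.

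Counts of genes moved with the floor. At a floor of 100 CPM, 236 genes were higher and 303 lower in all cells, 250 and 285 in *Pdgfra*-positive cells, and 233 and 244 in *Cdh5*-positive cells. With no floor the counts were 2865 and 1758, 2491 and 1727, and 1507 and 2402. By the difference of mean log2(CPM + 1), 2970 were higher and 186 lower in *Pdgfra*-positive cells, and 2569 and 113 in *Cdh5*-positive cells. On that scale the median of fibrillar collagens in all cells turned to -2.10 and that of larger vessel genes in *Cdh5*-positive cells to 0.89. *Ccl2* and *Ccl7* in *Pdgfra*-positive cells turned to 1.91 and 2.43, and *Lamb2*, *Selp*, *Ackr1*, and *Vwf* in *Cdh5*-positive cells to 0.055, 0.92, 0.12, and 0.78. *Il33* in *Cdh5*-positive cells turned to 1.43 with a gate of 2 UMIs. The cause was not tested.

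The share ratio of *Pdgfra*-positive cells was 0.295 without thinning and 0.103 at 2 UMIs, and that of *Cdh5*-positive cells 0.973 without thinning.

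Using all columns of each file adds the cells of later runs, of which those at 0 dpi are also the first run of the hypothyroid 14 dpi file. It left 77 of the 177 genes at least 2-fold in their direction and turned 36. Counts were then 343 higher and 132 lower in all cells, 265 and 73 in *Pdgfra*-positive cells, and 74 and 65 in *Cdh5*-positive cells, and share ratios 0.529 for *Pdgfra* and 4.11 for *Ptprc*. Medians turned for macrophage (-0.28) and muscle fibre genes (0.13) in all cells, for MHC class II (-0.034) and muscle fibre genes (0.49) in *Pdgfra*-positive cells, and for larger vessel (0.029) and muscle fibre genes (0.66) in *Cdh5*-positive cells. In all cells *C1qa*, *C1qc*, *C1qb*, and *Ms4a7* turned to log2 ratios of -0.32, -0.43, -0.95, and -0.53. In *Pdgfra*-positive cells *Cd74*, *Itgbl1*, *Mmp3*, *Cxcl5*, *Il1rl1*, and *Acta1* turned to -0.23, 0.33, -0.42, -0.14, -0.51, and 0.22. In *Cdh5*-positive cells *H2-Aa*, *Cd74*, *H2-Eb1*, *Pgf*, *Cd93*, and *Cxcl2* turned to -1.42, -1.19, -1.58, -0.99, -0.10, and -0.39. There, *Myl1*, *Tnnt3*, *Ckm*, *Tnnc2*, *Eno3*, *Acta1*, *Tnni2*, and *Mylpf* turned to 0.74, 0.87, 0.74, 0.55, 0.46, 0.28, 0.66, and 1.06. *Lamb2*, *Nrp1*, *Tek*, *Aqp1*, *Tcf15*, *Selp*, *Vwf*, *Stmn2*, *Alpl*, *Ptprb*, *Cxcl12*, and *Col11a1* turned to 0.49, 0.16, 0.25, 0.0075, 0.18, 0.21, 0.45, 0.62, 0.018, 0.10, 0.88, and 0.35.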
